A study of Ailuropoda melanoleuca with 25 samples.

Results

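The 94 gene models described here stood higher in giant panda (Ailuropoda melanoleuca) cells labelled A83-01 D16 than in cells labelled control D16. A gene model is a predicted gene, listed in the files by an assembly identifier without a gene name. They were selected on their measured values in the 4 day 16 libraries. The level used, CPM, is a model's estimated count divided by the library's sum, times 1000000. A model was chosen when it had 10 CPM or more in both A83-01 D16 libraries and at least 3 times the higher of the 2 control D16 libraries in each of them. Of 22924 models, 94 met this rule. All 94 were among the 17225 with enough counts to be tested, which the threshold of 10 CPM ensured.

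RNA was sequenced in 25 libraries, made from total RNA, of a study that reprogrammed giant panda cells to induced pluripotent stem cells (GPiPSCs) with episomal vectors that do not integrate. The 12 labelled groups are A83-01 D16 and control D16 (day 16), stage I D8, stage I D24, stage II D8, BACL LB GPiPSCs, LB GPiPSCs, LB PF, XR GPiPSCs, XR PF, BACL-CHIR99021 and BACL control, with 3 libraries in LB GPiPSCs and 2 in every other group. Every library carries primary fibroblast cells as its source, GPiPSCs included, and PF is read here as the primary fibroblasts. The labels give no dose or length of treatment, do not spell out PF, LB, XR or BACL, and do not say which fibroblasts the day 16 or stage libraries came from. The labels do not tell whether replicates came from different cultures. The p-values therefore reflect the scatter among the sequenced libraries alone, and that scatter may be technical.

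A83-01 is a small molecule that inhibits the type I receptors of TGF-beta, activin and nodal (ALK5, ALK4 and ALK7), and so the phosphorylation of SMAD2 and SMAD3. In fibroblasts TGF-beta signalling keeps up the mesenchymal programme of matrix and contractile genes. Inhibitors of this class are used in reprogramming, where they favour the change of fibroblasts towards an epithelial state. CHIR99021 inhibits the kinase GSK3 and so raises beta-catenin signalling. No file gives a gene name for a model, so no pathway or cell type marker could be looked up: of 60 symbols listed for the TGF-beta pathway, pluripotency, epithelial and mesenchymal genes, 0 matched a model.

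Totals ran from 8627983 to 14890260 estimated counts per library. Replicates correlated between 0.948 (LB PF) and 0.998 (the 3 BACL groups) in log2(CPM + 1) across models, at 0.984 in A83-01 D16 and at 0.996 in control D16. LB GPiPSCs replicate 3 correlated at 0.985 with the XR GPiPSCs libraries and at 0.972 with LB GPiPSCs replicates 1 and 2, so the LB result is also given without it. In these bulk samples fewer cells of a type and less RNA per cell cannot be told apart.

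The values in the day 16 libraries chose the models and are given as a description. The median model had 32.1 and 20.7 CPM in A83-01 D16 replicates 1 and 2, and 4.82 and 4.02 CPM in control D16 replicates 1 and 2. Summed over the 94 models the level was 4824 and 3584 CPM in A83-01 D16 and 712 and 637 CPM in control D16. The 2 A83-01 D16 libraries were not alike: 73 of the 94 models were higher in replicate 1, and 18 were over 2-fold apart between the A83-01 D16 replicates, against 2 between the control D16 replicates. The median log2 ratio of replicate 1 over replicate 2 was 0.57 over these models and 0.10 over the 9106 models with 10 CPM or more in both A83-01 D16 libraries. The same thresholds were passed by a further 269 models in replicate 1 alone and by 28 in replicate 2 alone.

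The lower A83-01 D16 library exceeded the higher control D16 library by 3.06 to 21 times, with a median of 4.09 times, over the 88 models with more than 3 counts in each control D16 library. The other 6 models had 3 counts or fewer in a control D16 library, and no ratio is given for them. Just inside the threshold lay models at 3.057, 3.063 and 3.08 times, and just outside it models at 2.996, 2.984 and 2.977 times. In level, the lowest models inside had 10.06, 10.21 and 10.37 CPM in their lower A83-01 D16 library, and those just outside 9.905, 9.905 and 9.828 CPM. Set per length, as TPM (a transcript measure that corrects for length), the models spanned a wide range of levels, from 1.73 to 472 TPM in A83-01 D16 (median 13.4 TPM) and from 0.0129 to 143 TPM in control D16 (median 2.06 TPM).

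The model evm.model.HIC_ASM_8.720 (coding length 414 bases) had 118 and 106 CPM in A83-01 D16 and 5.16 and 3.68 CPM in control D16, and evm.model.HIC_ASM_9.235 (1338 bases) had 48.9 and 35.9 CPM in A83-01 D16 and 1.18 and 2.22 CPM in control D16. These are the 2 largest ratios among models with at least 10 counts in each control D16 library. Both had their highest level at a stage outside day 16. Over the stage series, evm.model.HIC_ASM_8.720 averaged 32.2 ± 8.90 CPM at stage I D8, 388 ± 193 CPM at stage I D24 and 830.2 ± 88.2 CPM at stage II D8 (SD, n = 2 each), and evm.model.HIC_ASM_9.235 averaged 2.72 ± 0.434, 80.1 ± 2.28 and 61.9 ± 6.09 CPM. In GPiPSCs they were far lower, at 11.7 ± 14.5 and 16.4 ± 5.03 CPM in LB GPiPSCs (SD, n = 3) and 7.01 ± 0.748 and 7.56 ± 1.39 CPM in XR GPiPSCs (SD, n = 2). In LB PF and XR PF neither averaged over 0.466 CPM.

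**Figure D1:**
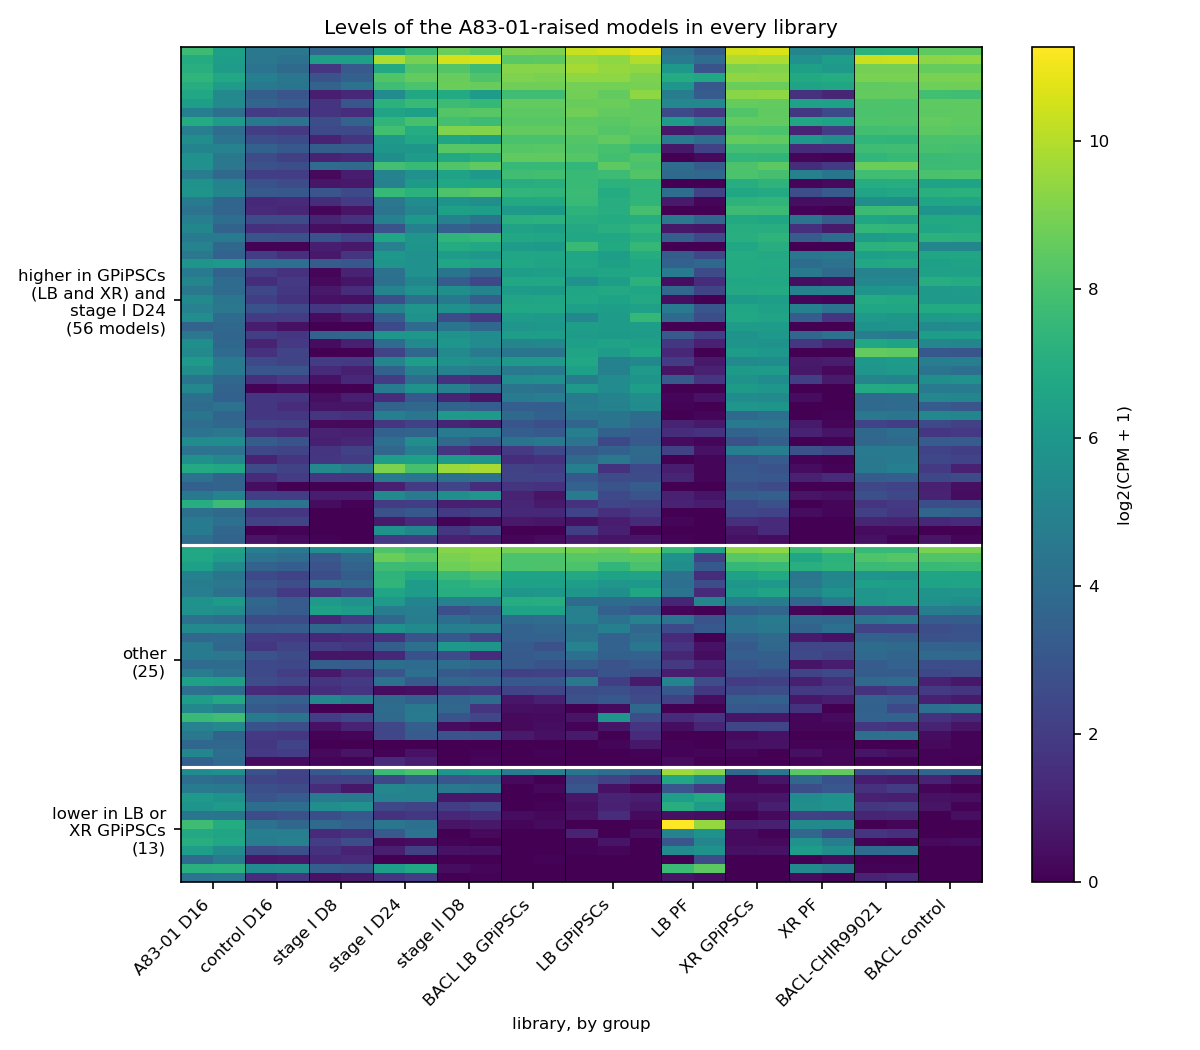
Levels of the 94 models (rows) in each of the 25 libraries (columns, by group) as log2(CPM + 1), with models split by whether they were called higher in LB GPiPSCs, in XR GPiPSCs and at stage I D24 (56 models), lower in LB or XR GPiPSCs (13 models) or had another pattern (25 models), and ordered within each block by their mean in the GPiPSCs libraries. The top block is mostly dark in control D16, stage I D8, LB PF and XR PF and brighter from stage I D24 on. The bottom block is mostly dark in GPiPSCs and varies from model to model in LB PF and XR PF. The calls that split the blocks and the day 16 rule favour these patterns.

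Outside day 16, most of the 94 models were low in fibroblasts and at stage I D8 and high from stage I D24 on. The number of models with 10 CPM or more in all libraries of a group was 15 at stage I D8, 61 at stage I D24 and 55 at stage II D8. It was 57 in LB GPiPSCs and 17 in LB PF, and 56 in XR GPiPSCs and 31 in XR PF. Over all models tested, the share at this level was 41.0%, 43.3% and 40.2% at the 3 stages, 51.7% in LB GPiPSCs, 48.3% in LB PF, 54.6% in XR GPiPSCs and 44.5% in XR PF, so it differed less between groups than among the 94 models. The median of the 94 models was 1.75 and 2.20 CPM in the stage I D8 libraries, 20.8 and 33.3 CPM at stage I D24 and 22.9 and 18.3 CPM at stage II D8. It was 28.6, 30 and 34.0 CPM in LB GPiPSCs and 2.57 and 1.74 CPM in LB PF, and 33.8 and 33.4 CPM in XR GPiPSCs and 2.32 and 2.12 CPM in XR PF. The medians of the GPiPSCs and PF libraries did not overlap.

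**Figure D2:**
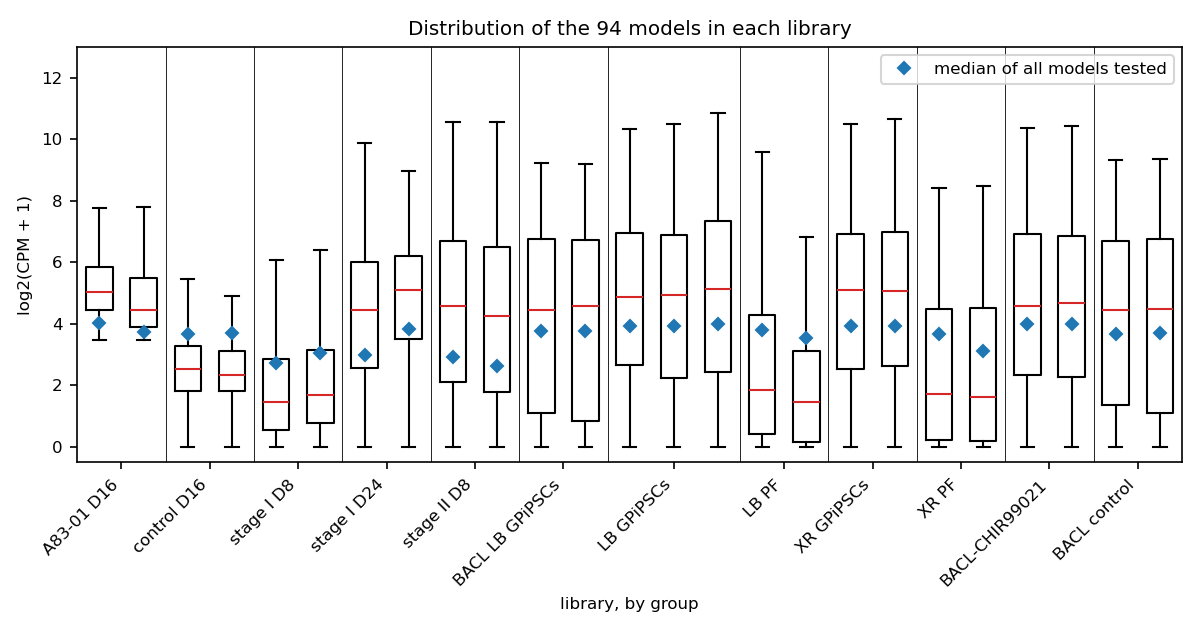
Distribution of log2(CPM + 1) over the 94 models in each library (box from the first to the last quartile, red line at the median, whiskers to the farthest model within 1.5 box lengths) with the median of all 17225 models tested as a blue diamond. The red line lies below the diamond in control D16, stage I D8, LB PF and XR PF and above it in every other group.

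Among the 94 models, the group with most levels near those in A83-01 D16 was stage I D24. The group means of 40 models at stage I D24 lay within 2-fold of those in A83-01 D16, against 7 at stage I D8, 23 at stage II D8, 13 in LB GPiPSCs and 14 in XR GPiPSCs. At stage I D24, 33 models lay above both A83-01 D16 libraries in both libraries and 37 below them. In 20 of the 94 models both A83-01 D16 libraries were above all 23 other libraries, and 11 of the 94 had under 10 CPM in every one of the 21 libraries outside day 16. These counts share the A83-01 D16 libraries with the rule and are a description. No counts over all models are set beside them, so they do not tell whether the likeness is particular to the 94 models.

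To see whether the models also changed where no day 16 library was involved, they were followed in 8 comparisons fitted over all models, with edgeR's quasi-likelihood test and Benjamini-Hochberg adjustment. Calls were made at an adjusted p under 0.05, and each count is set beside the share of all 17225 models called in the same direction. LB GPiPSCs were set against LB PF. In LB GPiPSCs 72 of the 94 models (76.6%) rose and 11 (11.7%) fell, where 28.5% of all models were called higher and 28.9% lower. Among the other models with 10 CPM or more in both A83-01 D16 libraries, 23.2% were called higher and 35.3% lower. Here and in the comparisons below, neither background was matched for the low control D16 levels that the rule also chose. In both control D16 libraries 18.1% of the 94 models had 10 CPM or more, against 51.8% of all models tested. The median log2 fold change was 3.17 over the 94 models (3.10 with models at 0 throughout one side at their bound of 3 counts over the group) and 0.00 over all models. Without LB GPiPSCs replicate 3, and without each other library of the comparison in turn, 67 to 72 rose and 11 to 13 fell.

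The models with the largest changes were near 0 on one side. evm.model.HIC_ASM_17.118 had 363, 308 and 337 CPM in LB GPiPSCs and 0.652 and 1.27 CPM in LB PF, a log2 fold change of 8.05 ± 0.54 (SE; edgeR adjusted p = 4.42e-10). evm.model.HIC_ASM_3.530 had 190.3, 129.8 and 165 CPM in LB GPiPSCs and 0.734 and 0.116 CPM in LB PF (7.98 ± 0.45, adjusted p = 4.1e-11). In the other direction, evm.model.HIC_ASM_4.1035 had 0.431, 1.05 and 0.679 CPM in LB GPiPSCs and 129 and 73.0 CPM in LB PF (-7.52 ± 0.46, adjusted p = 1.42e-10), and evm.model.HIC_ASM_3.2389 had 0.603, 1.21 and 0.934 CPM in LB GPiPSCs and 76.2 and 113 CPM in LB PF (-7.10 ± 0.33, adjusted p = 7.94e-12). The libraries of the 2 groups did not overlap in any of the 4, which the rule for naming models required.

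XR GPiPSCs against XR PF, which share no library with the LB comparison, gave a like picture. In XR GPiPSCs 61 of the 94 models (64.9%) rose and 12 (12.8%) fell, where 27.0% of all models were called higher and 28.9% lower, and 18.4% and 36.9% of the other models with 10 CPM or more in both A83-01 D16 libraries. The median log2 fold change was 2.55 (2.22 with bounds), against 0.00 over all models. Again evm.model.HIC_ASM_3.530 rose, with 156 and 166 CPM in XR GPiPSCs and 0.352 and 0.336 CPM in XR PF (log2 fold change 8.20 ± 0.45 SE, edgeR adjusted p = 8.53e-11), as did evm.model.HIC_ASM_16.288, with 617 and 659 CPM in XR GPiPSCs and 2.18 and 1.34 CPM in XR PF (7.86 ± 0.56, adjusted p = 1.49e-09). The model evm.model.HIC_ASM_7.414 fell to 0.401 and 0.458 CPM in XR GPiPSCs, against 74.9 and 47.7 CPM in XR PF (-7.74 ± 0.56, adjusted p = 5.8e-09), and evm.model.HIC_ASM_3.2389 to 0.562 and 0.610 CPM, against 43.0 and 53.0 CPM in XR PF (-6.99 ± 0.40, adjusted p = 2.24e-10).

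**Figure D3:**
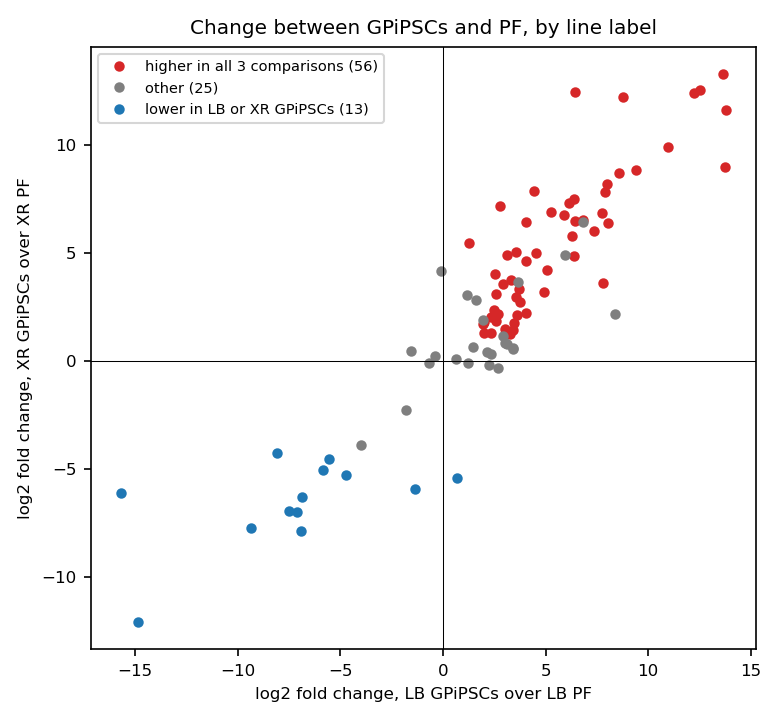
Fitted log2 fold change of each of the 94 models in XR GPiPSCs over XR PF (vertical) against that in LB GPiPSCs over LB PF (horizontal), with models called higher in both and at stage I D24 in red (56), lower in LB or XR in blue (13) and all others in grey (25). Because the colours follow the calls on these axes, red points lie in the upper right and blue points mostly in the lower left. Fold changes far from 0 depend on the prior count where a group had no counts.

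Of the 72 models that rose in LB GPiPSCs, 59 (81.9%) also rose in XR GPiPSCs, which is 96.7% of the 61 that rose there. Over all models the same shares were 69.6% and 73.4%. In the other direction, 10 models fell in both, which is 90.9% of the 11 that fell in LB and 83.3% of the 12 that fell in XR. Over all models both of these shares were 73.4%. Among the 94 models, 0 were called in opposite directions, a count without a share over all models beside it. The size of the change differed between LB and XR in 17 models, by a test of the difference added after the data were examined: the log2 fold change was higher in LB in 12 of the 94 models (12.8%) and lower in LB in 5 (5.32%). Over all models the shares were 5.56% and 3.09%, and over the other models with 10 CPM or more in both A83-01 D16 libraries 7.11% and 2.81%. With only the 9 libraries compared in the fit, these counts were 0 and 2, beside 0.25% and 0.269% of all models. By limma-trend on log2(TPM + 1) they were 6 and 5, beside 5.59% and 4.03% of all models.

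Between day 8 and day 24 of stage I most of the 94 models rose. At stage I D24, 76 of the 94 (80.9%) were higher than at stage I D8 and 7 (7.45%) lower, where 18.6% of all models were called higher and 13.9% lower. Among the other models with 10 CPM or more in both A83-01 D16 libraries 14.7% were called higher and 17.4% lower. The median log2 fold change was 3.59 (3.58 with bounds), against 0.15 over all models. The model evm.model.HIC_ASM_11.863 had 32.0 and 50.3 CPM at stage I D24 and 0.234 and 0.793 CPM at stage I D8 (log2 fold change 5.87 ± 0.36 SE), and evm.model.HIC_ASM_16.2057 had 29.4 and 69.3 CPM at stage I D24 and 0.623 and 0.721 CPM at stage I D8 (5.71 ± 0.33). For both, edgeR gave an adjusted p of 5.01e-09. Of those that fell, evm.model.HIC_ASM_4.1035 had 4.51 and 3.90 CPM at stage I D24 and 45.6 and 51.4 CPM at stage I D8 (-3.88 ± 0.45, adjusted p = 2.56e-06), and evm.model.HIC_ASM_8.237 had 25.3 and 27.0 CPM at stage I D24 and 85.9 and 74.5 CPM at stage I D8 (-2.0 ± 0.45, adjusted p = 0.00213). Without stage I D8 replicate 1, which leaves a lone library, fewer of the 94 and of all models were called lower. Without stage I D24 replicate 2 fewer of the 94 were called lower, but not fewer of all models. The median log2 fold change of the 94 was 3.71 and 3.57 in these fits, against 0.14 and -0.06 over all models.

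Rises in LB GPiPSCs, in XR GPiPSCs and at stage I D24, which are 3 comparisons with no library in common, were all called in 56 of the 94 models (59.6%) and in 1797 of all 17225 (10.4%). These 56 models had a median of 24.4 CPM in A83-01 D16 and 3.12 CPM in control D16. Over the stages their median was 1.22 CPM at stage I D8, 41.2 CPM at stage I D24 and 50.5 CPM at stage II D8. It was 96.9 CPM in LB GPiPSCs and 1.40 CPM in LB PF, and 102 CPM in XR GPiPSCs and 1.29 CPM in XR PF. Their choice favours high levels in GPiPSCs, so these medians are a description. Over all 94 models, the LB GPiPSCs libraries lay wholly above both A83-01 D16 libraries in 45 models and wholly below them in 39, and the XR GPiPSCs libraries above in 49 and below in 42. Among the 56 these counts were 38 above and 10 below in LB GPiPSCs, and 42 above and 12 below in XR GPiPSCs. They too are a description, without counts over all models beside them.

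A smaller group of 13 models was called lower in LB or XR GPiPSCs, 10 of them in both. Their median was 59.6 CPM in A83-01 D16 and 5.49 CPM in control D16, and it was 0.487 CPM in LB GPiPSCs and 47.1 CPM in LB PF, and 0.235 CPM in XR GPiPSCs and 33.2 CPM in XR PF. The PF and GPiPSCs levels chose these 13 and the day 16 levels chose all 94, so the medians describe the choice, and single models depart from them. evm.model.HIC_ASM_13.1012 had 32.3 and 53.6 CPM in LB PF and 12.1 and 5.40 CPM in XR PF, beside 28.0 and 27.0 CPM in control D16, and evm.model.HIC_ASM_4.433 had at most 0.489 CPM in a PF library. Both were picked after their values were seen. At stage I D24, 5 of the 13 were higher and 4 lower than at stage I D8. Over all models 18.6% were higher and 13.9% lower there. At stage II D8, 7 of the 13 were lower and 0 higher than at stage I D24. Over all models 19.0% were lower and 12.7% higher there. In evm.model.HIC_ASM_3.2389 the level was 59.8 ± 9.27 CPM in A83-01 D16 and 7.79 ± 1.45 CPM in control D16 (SD, n = 2 each). The remaining 25 models had medians of 24.8 CPM in A83-01 D16 and 4.89 CPM in control D16, of 14.7 CPM in LB GPiPSCs and 1.93 CPM in LB PF, and of 10.1 CPM in XR GPiPSCs and 2.68 CPM in XR PF.

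**Figure D4:**
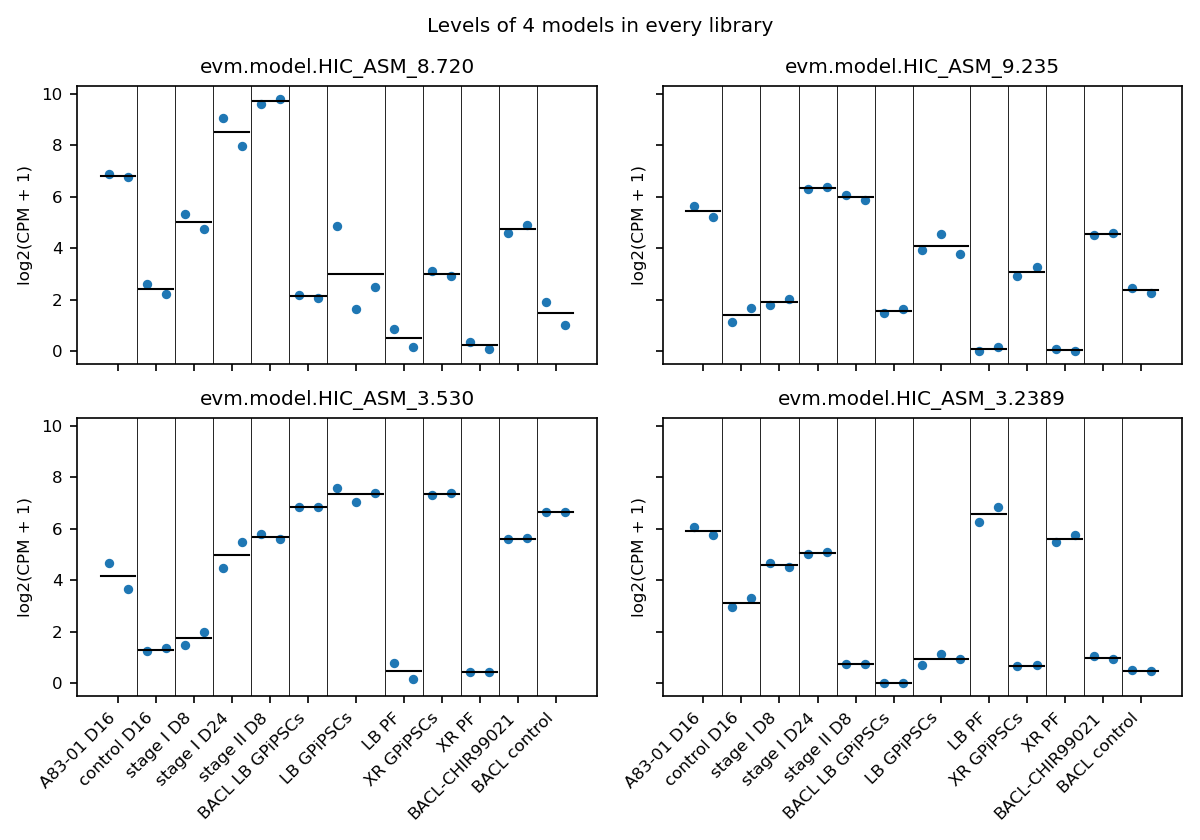
Levels of 4 models in each library as log2(CPM + 1), with points for libraries and black lines at group means: evm.model.HIC_ASM_8.720 and evm.model.HIC_ASM_9.235, with the largest ratios at day 16, evm.model.HIC_ASM_3.530, higher in GPiPSCs of both LB and XR, and evm.model.HIC_ASM_3.2389, lower in both. All 4 were higher in A83-01 D16 than in control D16, and they differ in where else they were high: stage I D24 and stage II D8 for the upper pair, GPiPSCs for evm.model.HIC_ASM_3.530 and PF for evm.model.HIC_ASM_3.2389.

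At stage I D8, before the rise, the models did not differ from fibroblasts in a common direction. Against the mean of LB PF and XR PF 29 of the 94 (30.9%) were higher and 28 (29.8%) lower at stage I D8, near the 26.0% and 25.6% of all models, with a median log2 fold change of -0.16 (-0.21 with bounds) against 0.00. Of the other models with 10 CPM or more in both A83-01 D16 libraries, 28.2% were higher and 30.8% lower. This balance depends on the scale: limma-trend on log2(TPM + 1) called 12 higher and 29 lower (14.5% and 35.9% of all models), where the median of all models moved to -0.29 and that of the 94 models was -0.18. At stage I D8 evm.model.HIC_ASM_8.720 already stood higher, with 38.5 and 25.9 CPM at stage I D8 and at most 0.815 CPM in a PF library (log2 fold change 7.16 ± 0.83 SE, edgeR adjusted p = 1.74e-06). evm.model.HIC_ASM_3.1006 had 37.6 and 26.4 CPM at stage I D8, 3.51 and 0.348 CPM in LB PF and 0.633 and 0.873 CPM in XR PF (5.12 ± 0.46, adjusted p = 8.74e-08). Of those that fell, evm.model.HIC_ASM_16.1561 had 7.32 and 10.7 CPM at stage I D8, 776 and 589 CPM in LB PF and 338 and 360.0 CPM in XR PF (-5.35 ± 0.33, adjusted p = 6.35e-10). evm.model.HIC_ASM_11.863, high again at stage I D24, had 0.234 and 0.793 CPM at stage I D8, 13.7 and 12.3 CPM in LB PF and 29.0 and 19.9 CPM in XR PF (-4.67 ± 0.34, adjusted p = 5.92e-09).

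Later steps moved the models in both directions. At stage II D8, 22 of the 94 (23.4%) were higher than at stage I D24 and 19 (20.2%) lower, where 12.7% of all models were called higher and 19.0% lower, with a median log2 fold change of 0.22 (0.26 with bounds) against -0.15. Of the other models with 10 CPM or more in both A83-01 D16 libraries, 15.8% were higher and 21.1% lower. Without stage I D24 replicate 2 or either stage II D8 replicate, which leaves a lone library, fewer were called lower among the 94 and over all models. The median log2 fold change of the 94 was then 0.17 to 0.25, and -0.19 to 0.00 over all models. evm.model.HIC_ASM_7.362 had 322 and 316 CPM at stage II D8 and 60.5 and 62.3 CPM at stage I D24 (2.65 ± 0.38 SE, edgeR adjusted p = 7e-05), and evm.model.HIC_ASM_13.687 had 63.1 and 56.5 CPM at stage II D8 and 9.70 and 16.9 CPM at stage I D24 (2.51 ± 0.47, adjusted p = 0.000721). Lower at stage II D8 were 2 models that are also low in GPiPSCs. evm.model.HIC_ASM_3.2389 had 0.666 and 0.647 CPM at stage II D8 and 31.1 and 33.4 CPM at stage I D24 (-5.33 ± 0.38, adjusted p = 4.5e-08), and evm.model.HIC_ASM_3.1095 had 0.518 and 0.719 CPM at stage II D8 and 20.5 and 16.3 CPM at stage I D24 (-4.63 ± 0.60, adjusted p = 3.29e-05).

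Set against stage II D8, 21 of the 94 models (22.3%) were higher and 42 (44.7%) lower in GPiPSCs (mean of LB and XR), where 31.0% of all models were called higher and 36.3% lower, and 30.3% and 47.2% of the other models with 10 CPM or more in both A83-01 D16 libraries. On log2(TPM + 1) 39 were higher and 20 lower, and the calls over all models moved the same way, to 49.9% higher and 15.3% lower. The median log2 fold change of the 94 models was -0.61 in counts and 0.15 on log2(TPM + 1), and that of all models -0.08 and 0.55, so on both scales the 94 models lay below all models. evm.model.HIC_ASM_6.1526 had 24.6, 32.1 and 44.7 CPM in LB GPiPSCs, 43.6 and 39.3 CPM in XR GPiPSCs and 1.26 and 0.503 CPM at stage II D8 (log2 fold change 4.56 ± 0.54 SE, edgeR adjusted p = 1.3e-06). evm.model.HIC_ASM_17.713 had 36.4, 72.2 and 181 CPM in LB GPiPSCs, 107 and 95.4 CPM in XR GPiPSCs and 4.89 and 2.73 CPM at stage II D8 (3.85 ± 0.70, adjusted p = 0.000108). evm.model.HIC_ASM_8.720 fell to between 2.10 and 28.3 CPM in the 5 GPiPSCs libraries, against 768 and 893 CPM at stage II D8 (-7.39 ± 0.67, adjusted p = 4.79e-08), and evm.model.HIC_ASM_15.1603 to between 0.0849 and 7.07 CPM, against 21.7 and 18.8 CPM (-5.82 ± 0.81, adjusted p = 7.53e-06). Comparisons that follow each other share the libraries of the stage between them.

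**Figure D5:**
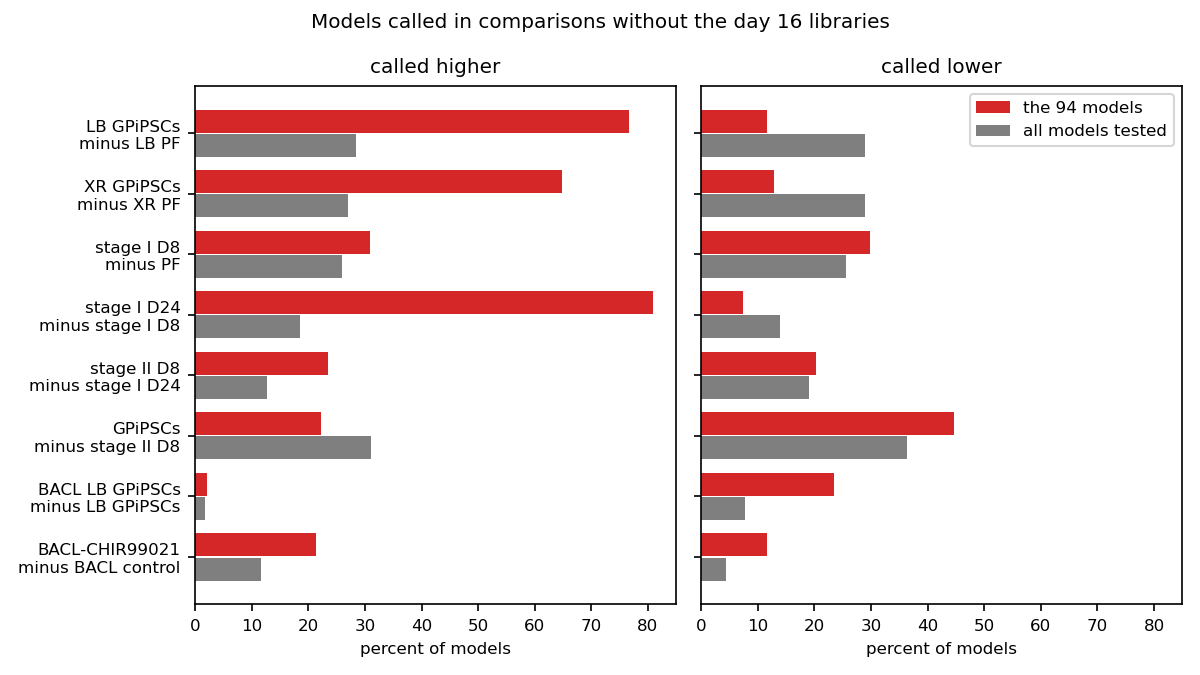
Percent of the 94 models (red) and of all 17225 models tested (grey) called higher (left) and lower (right) at an edgeR adjusted p under 0.05 in 8 comparisons without day 16 libraries. The red bars reach 76.6%, 64.9% and 80.9% higher in LB GPiPSCs, XR GPiPSCs and at stage I D24, and lie near the grey ones for stage I D8 against PF.

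In the cultures labelled BACL, 22 of the 94 models (23.4%) were lower and 2 (2.13%) higher in BACL LB GPiPSCs than in LB GPiPSCs, where 7.7% of all models were called lower and 1.79% higher, and 6.07% and 1.92% of the other models with 10 CPM or more in both A83-01 D16 libraries. Without BACL LB GPiPSCs replicate 1 or 2, which leaves a lone library, fewer were lower both among the 94 and over all models. The median log2 fold change of the 94 was then -0.39 or -0.34, against -0.05 or -0.03 over all models. Without LB GPiPSCs replicate 1, 4 of the 94 were higher, beside 2.01% of all models. evm.model.HIC_ASM_4.368 and evm.model.HIC_ASM_8.237 were the 2 that rose. evm.model.HIC_ASM_4.368 had 124 and 129.5 CPM in BACL LB GPiPSCs and 14.9, 14.7 and 14.4 CPM in LB GPiPSCs (log2 fold change 3.19 ± 0.68 SE, edgeR adjusted p = 0.00512), and evm.model.HIC_ASM_8.237 had 91.7 CPM in both BACL LB GPiPSCs libraries and 28.9, 10.4 and 7.64 CPM in LB GPiPSCs (2.64 ± 0.40, adjusted p = 0.000309). evm.model.HIC_ASM_9.235 fell to 1.78 and 2.09 CPM, against 14.1, 22.1 and 12.8 CPM in LB GPiPSCs (-3.00 ± 0.36, adjusted p = 3.46e-05). evm.model.HIC_ASM_16.1514 fell to 1.08 and 0.502 CPM, against 23.0, 4.68 and 6.37 CPM in LB GPiPSCs (-3.72 ± 0.69, adjusted p = 0.00156), and it was not called without BACL LB GPiPSCs replicate 2 (adjusted p = 0.0591).

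In BACL-CHIR99021 20 of the 94 models (21.3%) were higher and 11 (11.7%) lower than in BACL control, where 11.7% of all models were called higher and 4.43% lower, and 11.2% and 4.54% of the other models with 10 CPM or more in both A83-01 D16 libraries. On log2(TPM + 1), 22 were higher and 6 lower, beside 12.1% and 2.63% of all models. Leaving out any library of these groups leaves a lone library in its group. Fewer models were then called in each direction, among the 94 and over all models. The median log2 fold change of the 94 was 0.07 to 0.19 in these fits, and 0.00 over all models. evm.model.HIC_ASM_0.1758 had 381 and 349.9 CPM in BACL-CHIR99021 and 7.63 and 7.10 CPM in BACL control (log2 fold change 5.50 ± 0.61 SE, edgeR adjusted p = 8.44e-06). evm.model.HIC_ASM_16.2448 had 13.8 and 14.9 CPM in BACL-CHIR99021 and 1.02 and 0.659 CPM in BACL control (3.95 ± 1.07, adjusted p = 0.0147), and was not called without BACL control replicate 1 (0.101) or 2 (0.145) or BACL-CHIR99021 replicate 2 (0.0510). evm.model.HIC_ASM_8.237 had 3.98 and 3.55 CPM in BACL-CHIR99021 and 25.9 and 23.6 CPM in BACL control (-2.84 ± 0.49, adjusted p = 0.000393), and evm.model.HIC_ASM_13.654 had 3.33 and 2.42 CPM in BACL-CHIR99021 and 11.8 and 10.1 CPM in BACL control (-2.06 ± 0.34, adjusted p = 0.000405).

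The 94 models lay on 19 of the 21 scaffolds named HIC_ASM and on 0 of those named ORI. Nearly all models tested lay on HIC_ASM scaffolds. HIC_ASM_20 and HIC_ASM_18, which held none of the 94, had the fewest models tested of the 21 (186 and 180). Scaffold HIC_ASM_13 held the most, 15 of its 1283 models tested (1.17 per 100), HIC_ASM_3 held 10 of 1435 (0.70 per 100) and HIC_ASM_16 held 9 of 1346 (0.67 per 100). The highest rate was on HIC_ASM_19, with 3 of 192 (1.56 per 100), and the rate over all scaffolds was 0.55 per 100. Of the 94, 4 were numbered within 3 of another of them on the same scaffold, a count without a background over other models. They were evm.model.HIC_ASM_13.1011 with evm.model.HIC_ASM_13.1012, and evm.model.HIC_ASM_13.1195 with evm.model.HIC_ASM_13.1198. Coding lengths ran from 300 to 8781 bases with a median of 1548 bases, against a median of 1171 bases over all models tested. CPM are not corrected for length, so the threshold of 10 CPM can favour longer models, and the lengths are a description.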

How the data were processed

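Libraries were prepared with the NEBNext Ultra RNA kit (per the labels' protocols), and abundance was estimated with kallisto (per the submitters' processing notes). The version, index and build it used are not given in the sources analysed. For every model the deposited tables hold an estimated count (the authors' quantification, rounded here for tests) next to 2 lengths. They also hold the deposited TPM, which the authors' tool scales by effective length, used here for levels between models and in 1 alternative. Lengths are named coding lengths because 91.6% of them divide by 3. The RefSeq table (ASM200744v3) matched 0 identifiers. Single models are examples, since near-identical copies may split reads.

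The models, lists and tests were chosen with earlier results of these data known. CPM carry no further scaling. The fit took in the 25 libraries as 12 groups (13 residual degrees of freedom) with edgeR 4.0.16 under R 4.3.3, using filterByExpr, TMM factors and the robust quasi-likelihood F test, with Benjamini-Hochberg adjustment over 17225 models. Because the groups share their spread, a p-value may be understated where a group varies more. SE were derived from the F statistic. The step was tested on simulated counts, with the same spread for every model, for stage I D24 against stage I D8. It called 0 of 50 models changed 1.5 times, 13 of 50 at 2 times, 49 of 50 at 4 times and 50 of 50 at 8 times. It made 6 false calls. Small changes may therefore go uncalled.

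In each comparison and direction the 2 called models of largest fold change were named, if the lower side summed to 10 counts or more, the higher side averaged 10 CPM or more, and libraries did not overlap. For day 16 the 2 largest ratios were taken where both control libraries had 10 counts or more. Alternatives were RLE factors, DESeq2 1.42.0, an unfiltered fit, a fit of the compared libraries alone, a replicate block, limma-trend (limma 3.58.1) on log2(TPM + 1), other thresholds of the rule, and each library left out, in which a lone library takes its spread from the remaining groups. The LB and XR difference, with its alternatives, was added after the data were examined.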

Additional observations from a re-analysis of the deposited data

Results flagged for a closer look

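The change between GPiPSCs and PF differed between LB and XR, by a test of the difference itself, in 17 of the 94 models. It was higher in LB in 12 and lower in LB in 5 (edgeR, adjusted p under 0.05), where 5.56% and 3.09% of all models were called. In evm.model.HIC_ASM_3.1095 the levels were 0, 0 and 0.0849 CPM in LB GPiPSCs and 2465 and 707 CPM in LB PF, and 0.883 and 0.992 CPM in XR GPiPSCs and 41.5 and 41.2 CPM in XR PF (difference of log2 fold changes -9.57 ± 1.11 SE, adjusted p = 7.68e-05). In evm.model.HIC_ASM_16.288 the group means were 495 CPM in LB GPiPSCs and 17.1 CPM in LB PF, and 638 CPM in XR GPiPSCs and 1.76 CPM in XR PF (-3.44 ± 0.59, adjusted p = 0.00179). In evm.model.HIC_ASM_13.2198 they were 233 CPM in LB GPiPSCs and 26.9 CPM in LB PF, and 189 CPM in XR GPiPSCs and 149.8 CPM in XR PF (3.01 ± 0.67, adjusted p = 0.00905). These 3 models were chosen after their values were seen. With only the 9 libraries compared in the fit, 0 were higher and 2 lower, beside 0.25% and 0.269% of all models. Leaving out each library in turn moved the number higher widely, and the number lower little, among the 94. The number higher was lowest without XR GPiPSCs replicate 1 and highest without LB PF replicate 1, among the 94 and over all models. The median difference of the 94 was 0.22 and 0.99 in these 2 fits, against 0.02 and 0.15 over all models.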

How the results depend on the processing

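Every named model kept its direction in the alternatives that gave a value, and all but evm.model.HIC_ASM_16.1514 and evm.model.HIC_ASM_16.2448 kept their call. The shares of models that rose in LB GPiPSCs (64.7% to 77.7%), XR GPiPSCs (55.9% to 69.4%) and at stage I D24 (70.6% to 80.9%) stayed within 1.5 times of the reported ones. Of 257 alternative values for such counts, 47 moved further, and the cause was not tested. The rule itself gave 49 models on TPM (36 of them shared), 274 at 2 times and 32 at 5 times the control, and 34 at 30 CPM.

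At 5 times the control, 18.8% fell in LB GPiPSCs, 12.5% at stage I D8 and 37.5% in BACL LB GPiPSCs, 0.0% rose in BACL LB GPiPSCs and 37.5% in BACL-CHIR99021. At 2 times, 7.66% fell in BACL-CHIR99021. At 30 CPM, 23.5% fell in LB and 23.5% in XR GPiPSCs, 47.1% at stage I D8 and 11.8% at stage I D24, while 11.8% rose in GPiPSCs against stage II D8 and 5.88% in BACL LB GPiPSCs. With only the libraries compared in the fit, which leaves fewer libraries and models, 14.4% rose at stage II D8 (4.36% of all models) and 3.9% in BACL LB GPiPSCs (4.24%). In BACL-CHIR99021 50.6% (43 models) rose and 40.0% (34) fell (36.8% and 34.9% of all models in that fit). The LB and XR changes differed upward in 0.0% and downward in 2.3% (0.25% and 0.269% of all models). For stage I D8 such a fit called 15 of 72 models higher (15.7% of all), against 29 of 94. On log2(TPM + 1), 12.8% rose at stage I D8, 41.5% rose and 21.3% fell in GPiPSCs against stage II D8, 6.38% fell in BACL-CHIR99021, and 6.38% had a higher change in LB than in XR. Over all models these shares were, in the same order, 14.5%, 49.9%, 15.3%, 2.63% and 5.59%. On that scale the median of all models lay at 0.21 in LB GPiPSCs and 0.28 in XR GPiPSCs, and those of the 94 models at 2.61 and 1.95.

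Leaving out each library gave 4.26% to 6.38% lower at stage I D24, 11.7% to 19.1% lower at stage II D8, 2.13% to 4.26% higher and 5.32% to 21.3% lower in BACL LB GPiPSCs, 13.8% to 17.0% higher and 4.26% to 6.38% lower in BACL-CHIR99021, and 2.13% to 28.7% with a higher change in LB than in XR. Calls over all models fell as well in the fits without a BACL library. At both ends of the last range, the share of all models moved the same way. The replicate block called 74.5% of the models higher in LB GPiPSCs, 67.0% in XR GPiPSCs and 80.9% at stage I D24, and moved no share by over 1.5 times. Deviations of same-numbered libraries correlated between -0.545 and 0.558 over the comparisons. The labels do not say whether libraries of the same number share a culture or a batch. With 2 libraries in most groups, models with few counts are the least certain.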
